A study of Zea mays with 10 samples.

Results

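Genes that track cell differentiation state were described here in bulk RNA-seq of the early maize endosperm. The study scored single cells of 7 DAP (days after pollination) endosperm with CytoTRACE, from its aleurone and starchy endosperm clusters and the clusters adjacent to them, and ranked genes by their correlation with that score. The 50 genes with the most positive and the 50 with the most negative correlation were taken from that ranking, and genes that the study had marked as used for cell cycle correction were left out. This removed 2 alpha-tubulin genes from the positive side, TUA1 and TUA3. The remaining 98 genes, 48 positive and 50 negative, were all found by identifier in both count tables, which hold 45953 genes each. The ranking came from single-cell libraries of protoplasts of the later of the stages compared here, without cells of the earlier stage or of the other endosperm cell types, and no bulk value entered the choice.

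CytoTRACE estimates how differentiated a cell is from the number of genes it expresses, so a high score marks a less differentiated cell and a low score a more differentiated one. Genes that follow the score upward in growing tissues are commonly those of the protein synthesis machinery, above all ribosomal proteins, the structural proteins of the small and large subunits of the ribosome. Genes that follow it downward tend to serve specialised cells, and in the cereal endosperm one such cell type is the aleurone, the outer layer that stores oil and protein, carries defence proteins and later mobilises reserves.

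All libraries were from wild-type endosperm of the inbred line B73, and no mutant, transgene or other treatment was involved. In the replicated set, endosperm at 7 DAP was compared with endosperm at 6 DAP, with 3 libraries per stage, each made from 20 pooled endosperms. In the protoplast set, protoplasts, which are cells freed from their walls with cellulase, macerozyme and pectolyase, were compared with undigested endosperm, with 1 library each at 6 and at 7 DAP. The methods state that the 3 replicates came from independent ears, while the labels and the methods describe library construction differently.

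The replicated libraries held 15911047 to 24311056 counts each, and those of the protoplast set held 22234742 to 30203337. Known cell type markers were detected in every group, and none was at 0 in all libraries. Their summed levels at 7 DAP against 6 DAP, in CPM (counts scaled to library size with TMM factors), were 651 to 664 against 480.1 to 494 for the 2 aleurone markers VPP7 and DHN1. They were 1495 to 1517 against 281 to 293 for 3 markers of the embryo surrounding region, 82.5 to 83.9 against 29.5 to 31.1 for 2 markers of the endosperm adjacent to the scutellum, and 6633 to 6776 against 4639.6 to 4807 for 5 starchy endosperm markers, of which 4 were higher and FL3 was lower, with 1182 to 1228 against 2041 to 2186. The 6 markers of the basal endosperm transfer layer went the other way, with 1208 to 1236 at 7 DAP against 3321 to 3617 at 6 DAP. The 4 genes used as embryo markers, OLE1, OLE3, GLB1 and OBAP1A, summed to 543 to 570.4 against 65.2 to 71.9. Their transcripts were thus in both groups and more abundant at 7 DAP, and the tissue they came from was not tested. In bulk tissue a lower level can come from fewer cells of a type or from less RNA per cell, and these cannot be told apart.

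The study made RNA in situ probes for 2 of the negatively correlated genes, and the forward primers identify the transcripts that were imaged. SBT1 encodes a subtilisin-type protease and was used by the study as an aleurone marker, and LTPG1 encodes a lipid transfer protein named for its glycosylphosphatidylinositol anchor. The sequences run 5′ to 3′, 20 bases each.
SBT1 forward primer: gcatcgcagctgtcatcaag
LTPG1 forward primer: ctctgcatcaccctgctgaa

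As a first view, the summed counts of each list were set against the total of each library. The 48 positively correlated genes took 1.78%, 1.80% and 1.79% of the counts at 7 DAP, against 2.30%, 2.31% and 2.36% at 6 DAP. The 50 negatively correlated genes took 1.79%, 1.82% and 1.80% at 7 DAP, against 0.917%, 0.920% and 0.926% at 6 DAP. The stages did not overlap in either list, and the lists moved in opposite directions. Protoplasts had a lower share of the positive list than undigested endosperm at both stages, with 1.54% against 1.87% at 6 DAP and 1.20% against 1.41% at 7 DAP. For the negative list the share was 1.02% in protoplasts against 0.954% in undigested endosperm at 6 DAP, and 1.56% against 1.85% at 7 DAP, so the order of the treatments differed between stages. The negative sum is mostly AL9, SBT1 and PDK2, the 3 members with the most counts.

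**Figure D1:**
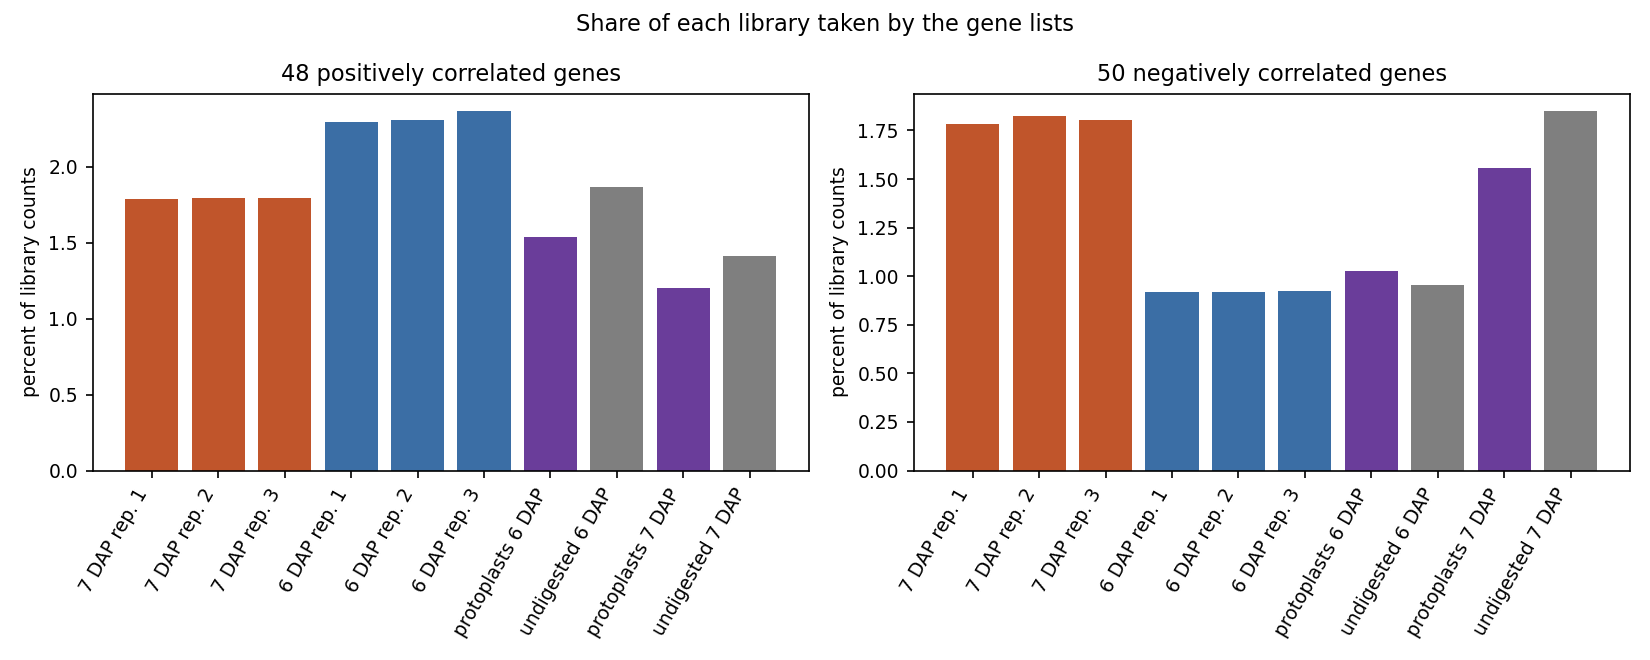
Percent of the counts of each of the 10 libraries taken by the positively (left) and the negatively (right) correlated genes, 1 bar per library, with replicated libraries of 7 DAP, then of 6 DAP, then protoplasts beside undigested endosperm of each stage. The positive share is 1.78% to 1.80% at 7 DAP against 2.30% to 2.36% at 6 DAP, and the negative share 1.79% to 1.82% against 0.917% to 0.926%.

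Every positively correlated gene was lower at 7 DAP than at 6 DAP. All 48 were tested with edgeR across 21486 genes, and all 48 were lower at an adjusted p under 0.05, beside 28.0% of all genes tested. None was higher, with edgeR, with DESeq2 or at an unadjusted p under 0.05. The 3 libraries of 7 DAP lay below the 3 libraries of 6 DAP for 48 of 48 members, beside 30.6% of all genes tested. The changes were small and alike: the median log2 fold change was -0.49, with a range between -0.82 and -0.19, beside a median of 0.02 over all genes tested. No member passed the fold change limit of the study, an absolute log2 fold change over 2, beside 0.451% of all genes tested that were lower by that much. With libraries scaled by their totals in place of TMM, log2 values of all genes shifted up by 0.11, the list median was -0.38 and all 48 were still called lower. Under that scaling 66.7% of all called genes were higher at 7 DAP, against 50.2% with TMM.

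Ribosomal proteins made up 39 of the 48 positively correlated genes, 18 of the large subunit, 18 of the small subunit and 3 of the acidic stalk. The small subunit gene 1d010614 was placed there by a Gene Ontology term alone, whereas TIDP3261, which also carries ribosome terms, was placed with the other genes by its description as a kinase. The strongest decrease was that of IDP65 (Zm00001d048368), 1 of 2 members annotated as large subunit protein L23. IDP65 had 268, 275 and 281 CPM at 7 DAP against 473, 481 and 497 CPM at 6 DAP. Its 3 values at 7 DAP were close together and well under all values at 6 DAP. The log2 fold change was -0.82 ± 0.03 (SE, edgeR adjusted p = 1.9e-16). The other L23 gene, IDP65a (Zm00001d027595), had 351, 367 and 356 CPM at 7 DAP against 555, 573 and 587 CPM at 6 DAP, a log2 fold change of -0.67 ± 0.03 (SE). Reads that fit both L23 genes equally well are not in the counts, so how the decrease divides between them is uncertain.

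Other large subunit genes followed with smaller changes, and the 18 had a median log2 fold change of -0.50. IDP486 (Zm00001d014082), annotated as L21-1, had 249, 247 and 262 CPM at 7 DAP against 387, 382 and 402 CPM at 6 DAP. 1d014969, annotated as L37, had 165, 165 and 159 CPM against 244, 242 and 262 CPM. A name such as 1d014969 is the gene identifier without its leading characters, Zm0000. Their log2 fold changes were -0.63 ± 0.03 and -0.61 ± 0.03 (SE). At the weak end, 1d053863, annotated as L37a-2, had 269, 277 and 268 CPM at 7 DAP against 301, 305 and 336 CPM at 6 DAP, with a log2 fold change of -0.21 ± 0.03 (SE, edgeR adjusted p = 2.1e-05). RPL35 (Zm00001d016549, L35-1) and pco068622 (Zm00001d038865, L28-1) were between these, with log2 fold changes of -0.41 ± 0.03 and -0.43 ± 0.02 (SE).

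The 18 small subunit genes had a median log2 fold change of -0.51 and a range between -0.69 and -0.26. RPS28 (Zm00001d047697) changed most, with 94.0, 100.4 and 98.8 CPM at 7 DAP against 155, 154 and 165 CPM at 6 DAP and a log2 fold change of -0.69 ± 0.04 (SE). RPS6B (Zm00001d006899) encodes ribosomal protein S6, a known phosphorylation target of the growth-regulating TOR pathway. RPS6B had 582, 590.1 and 581 CPM at 7 DAP against 899, 876 and 912 CPM at 6 DAP. Its replicates differed little within a stage, and its log2 fold change was -0.62 ± 0.02 (SE, edgeR adjusted p = 4.3e-16). RPS30 (Zm00001d037479) had 130.4, 131 and 127 CPM against 192, 194 and 211 CPM, and 1d041727, annotated as S29, had 94.1, 90.7 and 93.2 CPM against 137, 139.9 and 149.8 CPM. Both had log2 fold changes of -0.62 ± 0.04 (SE). RPS25 (Zm00001d049933) and RPS27 (Zm00001d053239) had log2 fold changes of -0.46 ± 0.03 and -0.30 ± 0.03 (SE). The smallest change was that of 1d012886, annotated as S21, with 87.9, 95.1 and 85.7 CPM at 7 DAP against 102, 107 and 112 CPM at 6 DAP.

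The acidic P proteins form the flexible stalk of the large subunit, which recruits translation factors. ARPP2A (Zm00001d009653) had 306, 318 and 299 CPM at 7 DAP against 425, 420.4 and 472 CPM at 6 DAP. ARPP3 (Zm00001d014679) had 387, 389 and 387 CPM against 536, 545 and 555 CPM, and ARPP1A (Zm00001d035087) had 352, 355 and 354 CPM against 469.8, 486 and 474 CPM. The log2 fold changes were -0.51 ± 0.04 for ARPP2A, -0.49 ± 0.02 for ARPP3 and -0.43 ± 0.02 for ARPP1A (SE). All 3 stalk genes thus lay in the middle of the range of the list.

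In 6 cases the list held 2 genes with the same annotated ribosomal protein, and both genes of each pair were called lower at 7 DAP. The log2 fold changes were -0.52 and -0.57 for the S19-3 genes 1d029543 and 1d047296, and -0.46 and -0.46 for the S14 genes MCH1 and 1d036567. They were -0.57 and -0.47 for the L36 genes 1d010528 and magi92568, and -0.41 and -0.49 for the L35 genes RPL35 and 1d004052. The S28 genes RPS28 and 1d028807 had -0.69 and -0.51. Genes of a pair can share reads, which unique mapping drops, so their separate values are uncertain.

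The other 9 positively correlated genes, which are not described as ribosomal proteins, also fell, with a median log2 fold change of -0.47. HSP70-4 (Zm00001d041550), a heat shock protein of the 70 kDa class of chaperones, had 2644, 2670 and 2614 CPM at 7 DAP against 3717, 3749 and 3822 CPM at 6 DAP. Its log2 fold change was -0.51 ± 0.01 (SE, edgeR adjusted p = 4.4e-17). 1d022513 is annotated as elongation factor 1-beta 2, a subunit of the factor that reloads the carrier of aminoacyl-tRNA with GTP, and had 470.0, 493 and 488 CPM against 664, 669 and 692 CPM. 1d029968 belongs to the nucleoside diphosphate kinases, which keep nucleoside triphosphates in balance, and had 465, 473 and 459 CPM against 665, 625 and 649.5 CPM. The smallest decrease of the whole list was that of TIDP3261 (Zm00001d031429), described as a pfkB-like carbohydrate kinase, with 233, 229.6 and 235 CPM at 7 DAP against 272, 261 and 264 CPM at 6 DAP. Its log2 fold change of -0.19 ± 0.03 (SE) was still larger than the spread between replicates. The 4 genes used here with no annotation, among them 1d052025, had log2 fold changes between -0.55 and -0.34.

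**Figure D2:**
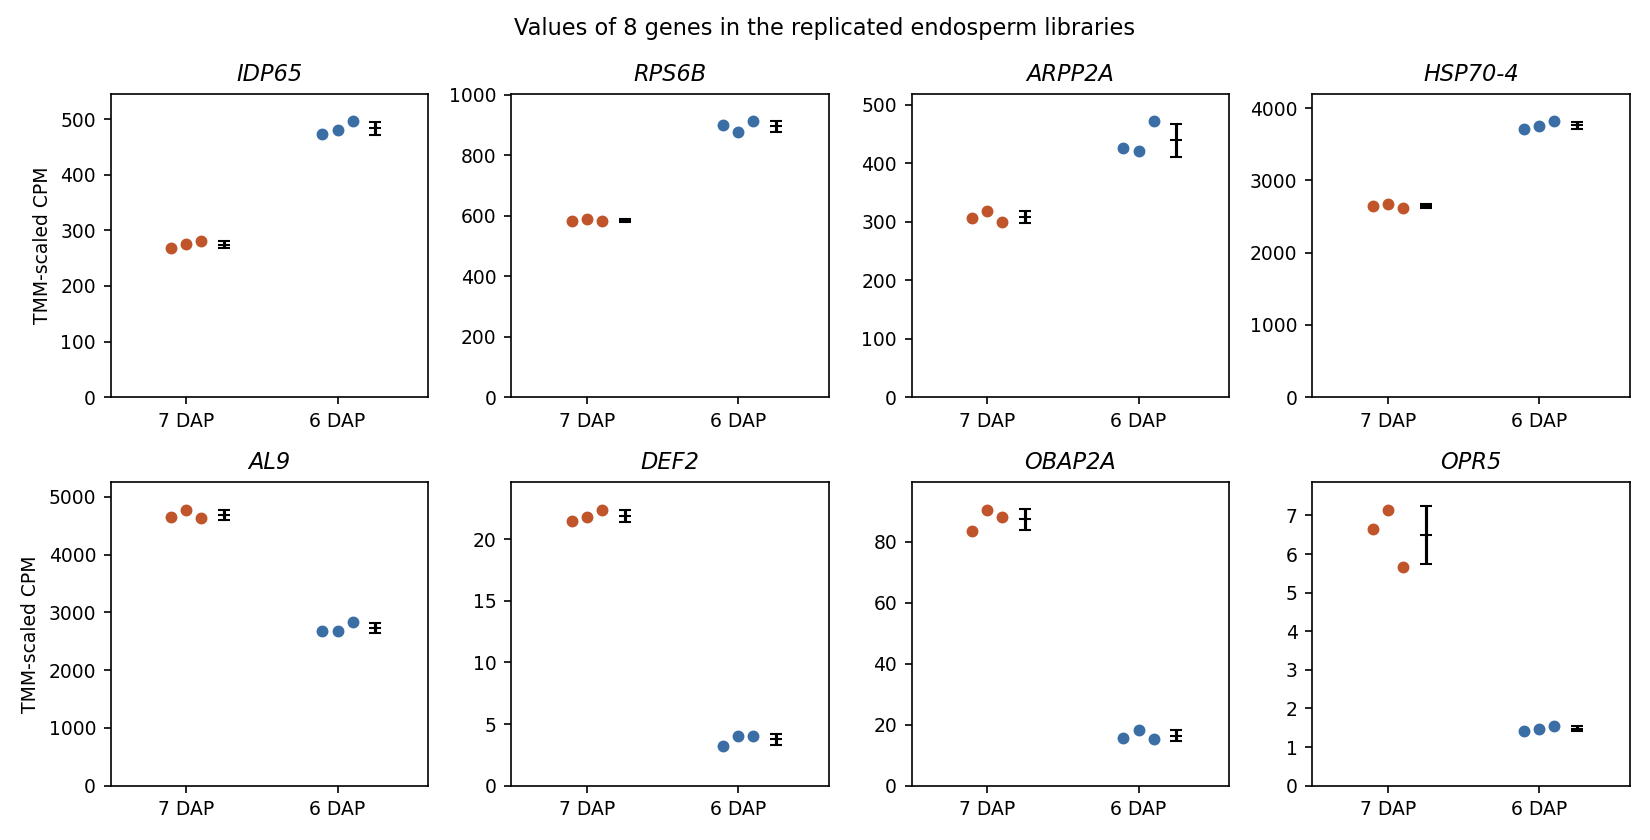
TMM-scaled CPM of 4 positively correlated genes (top row) and 4 negatively correlated genes (bottom row) in the replicated libraries, with 7 DAP left of 6 DAP; coloured points are the 3 libraries of a stage and the black mark beside them is their mean with its SD. For all 8 genes the points of the stages do not overlap, as for IDP65 with 268 to 281 at 7 DAP against 473 to 497 at 6 DAP and for DEF2 with 21.4 to 22.4 against 3.24 to 4.04.

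Ribosomal protein genes outside the list, taken from the study's single-cell gene lists, behaved like those in it. Those lists hold cluster markers, differences within cell types and differences between 6 and 7 DAP. A stage difference could thus itself bring a gene in. Of the 151 other genes annotated as ribosomal proteins there, 150 were lower at 7 DAP, 0 were higher and 1 did not pass the test. Of all genes tested, 28.0% were lower. Their median log2 fold change was -0.53, and their summed level was 30328 to 30699 CPM at 7 DAP against 42930 to 44278 CPM at 6 DAP. The decrease was therefore also seen beyond the 39 ribosomal members, among genes chosen in part by stage. Ribosomal protein genes outside the study's lists were not examined.

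The protoplast set held a further pair of stages for each preparation, with 1 library per stage and so no test. Between undigested libraries, 47 of 48 positively correlated genes were lower at 7 DAP than at 6 DAP, beside 39.6% of the genes tested above. TIDP3261 was the exception, with a difference of 0.02 on the scale of log2(CPM + 1), where CPM is by library total, and of -0.06 with TMM scaling. Between protoplast libraries, all 48 were lower at 7 DAP, beside 53.0% of genes. The median differences were -0.40 in undigested endosperm and -0.37 in protoplasts, beside 0.09 and -0.02 over all genes.

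Most negatively correlated genes were higher at 7 DAP than at 6 DAP. Of the 50, 42 passed the filter on low counts, and of these 37 were higher and 1 lower at an adjusted p under 0.05, while 4 did not pass. The share of all genes tested called higher was 28.2%, and the share called lower 28.0%. The libraries of 7 DAP lay above those of 6 DAP for 40 of the 42 tested members, beside 31.2% of all genes. The median log2 fold change was 1.29, with a range between -0.18 and 2.55. The study's limit, an absolute log2 fold change over 2, was passed by 8 members, all higher, beside 2.54% of all genes tested. Of the 42, 1d000919 passed the filter through the 7 DAP libraries alone and so had to be higher there. Scaling by library totals gave 39 higher and 1 lower, with a median of 1.40.

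Genes of the aleurone and of defence differed widely in size of change. AL9 (Zm00001d012572), named for the aleurone, had 4650, 4778 and 4631 CPM at 7 DAP against 2684, 2685 and 2835 CPM at 6 DAP, a log2 fold change of 0.78 ± 0.02 (SE). SBT1 (Zm00001d023684), whose probe primer is given above, had 3891, 3977 and 3957 CPM against 2556, 2547 and 2594 CPM, a log2 fold change of 0.62 ± 0.01 (SE, edgeR adjusted p = 9.6e-19). These 2 genes were thus among the modest increases. DEF2 (Zm00001d024302), a defensin-like protein of a family of small antimicrobial peptides, changed most of all members, with 21.4, 21.8 and 22.4 CPM at 7 DAP against 3.24, 4.03 and 4.04 CPM at 6 DAP. The log2 fold change was 2.55 ± 0.11 (SE, edgeR adjusted p = 2.7e-14). PROPEP1 (Zm00001d002137), the precursor of a peptide that elicits defence, had 66.9, 70.3 and 69.9 CPM against 40.7, 40.8 and 41.1 CPM. MLO5 (Zm00001d042578), of a family of membrane proteins known from mildew susceptibility, had 17.9, 17.7 and 18.2 CPM against 17.2, 17.2 and 15 CPM and did not pass the test (edgeR adjusted p = 0.22).

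All 3 oil body and storage genes were higher at 7 DAP. OBAP2A (Zm00001d043464), an oil body-associated protein, had 83.8, 90.6 and 88.1 CPM at 7 DAP against 15.7, 18.4 and 15.2 CPM at 6 DAP. Its log2 fold change was 2.42 ± 0.06 (SE, edgeR adjusted p = 3.4e-18). Its relative OBAP2B (Zm00001d011755) had 39.3, 38.6 and 41.6 CPM against 18.2, 18.3 and 12.5 CPM, a log2 fold change of 1.28 ± 0.09 (SE). phi448880 (Zm00001d048176), annotated as a vicilin-like seed storage protein, had 309, 315 and 309 CPM against 65.5, 67.8 and 71.8 CPM, a log2 fold change of 2.19 ± 0.03 (SE). The replicates of each stage lay close together, and no values of the stages overlapped. The 4 embryo genes above moved the same way, with log2 fold changes between 2.65 and 3.61, and their part in the increase of these 3 genes was not tested.

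A pair of members belongs to the synthesis of jasmonate, a hormone of defence and development made from membrane lipids, and both were higher at 7 DAP. AOC1 (Zm00001d029594), allene oxide cyclase, which forms the ring of the hormone precursor, had 103, 102 and 99.3 CPM at 7 DAP against 39.0, 36.3 and 30.7 CPM at 6 DAP. OPR5 (Zm00001d003584), of the oxophytodienoate reductases, had 6.64, 7.15 and 5.67 CPM against 1.41, 1.47 and 1.55 CPM. Their log2 fold changes were 1.51 ± 0.06 and 2.14 ± 0.18 (SE). Of 49 other genes that the study lists for jasmonate biosynthesis and that are in the count table, 38 were tested. Of these, 21 were higher, 8 lower and 9 did not pass, beside 28.2% of all genes called higher and 28.0% called lower. The median over the 38 was 0.43.

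Genes of sucrose and pyruvate metabolism were higher at 7 DAP in all 4 cases. Sucrose synthases cleave sucrose into UDP-glucose and fructose for starch and cell wall synthesis. SUS1 (Zm00001d047253) had 499, 538 and 521 CPM at 7 DAP against 185, 185 and 189.7 CPM at 6 DAP, and SUS2 (Zm00001d029091) had 133, 138 and 142 CPM against 50.1, 51.3 and 51.2 CPM. The sucrose synthase 3 homolog 1d029087 had 112, 115 and 118 CPM against 35.2, 33.9 and 36.5 CPM. The log2 fold changes were 1.48 ± 0.03 for SUS1, 1.44 ± 0.04 for SUS2 and 1.71 ± 0.04 for 1d029087 (SE), all larger than the spread between replicates. PDK2 (Zm00001d010321), a pyruvate, orthophosphate dikinase, which interconverts pyruvate and phosphoenolpyruvate, had 3686, 3734 and 3723 CPM at 7 DAP against 1849, 1899 and 1870 CPM at 6 DAP. Its log2 fold change was 0.99 ± 0.01 (SE, edgeR adjusted p = 4.9e-22). The related genes outside the list also were higher: SH1, the sucrose synthase of the starchy endosperm, with a log2 fold change of 2.96 ± 0.03, and PDK1 with 1.52 ± 0.02 (SE).

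Of the 5 genes of detoxification and redox balance, 4 were tested and all 4 were higher at 7 DAP. 1d022278, annotated as the 1-Cys peroxiredoxin PER1, an antioxidant protein of cereal aleurone and embryo, had 142, 151 and 144 CPM at 7 DAP against 39.9, 38.1 and 37.2 CPM at 6 DAP. Its log2 fold change was 1.92 ± 0.04 (SE). GST30 (Zm00001d029708), a glutathione transferase, had 13, 13.3 and 11.8 CPM against 5.80, 5.05 and 5.35 CPM, and the metal-binding MTL2 (Zm00001d029778), metallothionein2, had 14.7, 11.7 and 12.3 CPM against 5.89, 4.67 and 4.87 CPM. CYP11 (Zm00001d044159), a cytochrome P450, rested on few counts, with 31, 51 and 32 counts at 7 DAP against 13, 9 and 16 counts at 6 DAP, and a log2 fold change of 1.51 ± 0.32 (SE). The fifth gene, GST7, is described with the untested genes below.

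Both lipid transfer proteins were higher. LTPG1 (Zm00001d031636), whose primer is given above, had 288, 299 and 308 CPM at 7 DAP against 137, 128 and 136 CPM at 6 DAP, a log2 fold change of 1.15 ± 0.03 (SE). 1d013907, a nonspecific lipid-transfer protein, had 128, 126 and 127 CPM against 42.5, 34.2 and 16.1 CPM, a log2 fold change of 2.01 ± 0.15 (SE). Its 6 DAP libraries differed widely, and the third was lowest. OCL4 (Zm00001d030069), a homeodomain leucine zipper IV factor of a family known from outer cell layers, had 201, 209 and 205 CPM against 190.3, 198 and 201 CPM and did not pass the test (edgeR adjusted p = 0.072). It was called higher with library totals, with a log2 fold change of 0.18, and without the third 6 DAP library, with 0.08 (edgeR adjusted p = 0.0295).

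Among the other enzymes, pco144726 (Zm00001d006796), of the NAD(P)-binding Rossmann-fold proteins, had 103, 107 and 107 CPM at 7 DAP against 25, 23 and 20.6 CPM at 6 DAP. 1d025924, annotated as a neomenthol dehydrogenase, had 1042, 1074 and 1068 CPM against 374, 376 and 360.0 CPM, and the O-methyltransferase 1d024120 had 283, 295 and 285 CPM against 205, 204 and 212 CPM. Their log2 fold changes were 2.19 ± 0.05, 1.52 ± 0.02 and 0.48 ± 0.03 (SE). The single negatively correlated gene called lower was 1d023964, a serine carboxypeptidase-like protein, with 226, 235 and 227 CPM at 7 DAP against 254, 259 and 265 CPM at 6 DAP. Its log2 fold change was -0.18 ± 0.03 (SE, edgeR adjusted p = 1.4e-05), and it was below 0 under every alternative tried.

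Of the 20 negatively correlated genes for which no annotation was used, 17 were tested, and 15 of these were higher at 7 DAP. 2G072322 (Zm00001d025434) had 29.9, 28.7 and 25.8 CPM at 7 DAP against 5.42, 6.97 and 5.65 CPM at 6 DAP, and php20719a (Zm00001d025833) had 152, 161 and 158 CPM against 39.5, 37.6 and 36.6 CPM. Both passed the limit of the study, with log2 fold changes of 2.24 ± 0.10 and 2.05 ± 0.04 (SE). PLT3 (Zm00001d043049), a symbol under which no function is given here, had 44.6, 45.6 and 41.9 CPM against 21, 22.2 and 23.1 CPM. 1d041363 and bnlg1759a (Zm00001d038993) did not pass the test, with log2 fold changes of -0.05 ± 0.16 and 0.23 ± 0.21 (SE).

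**Figure D3:**
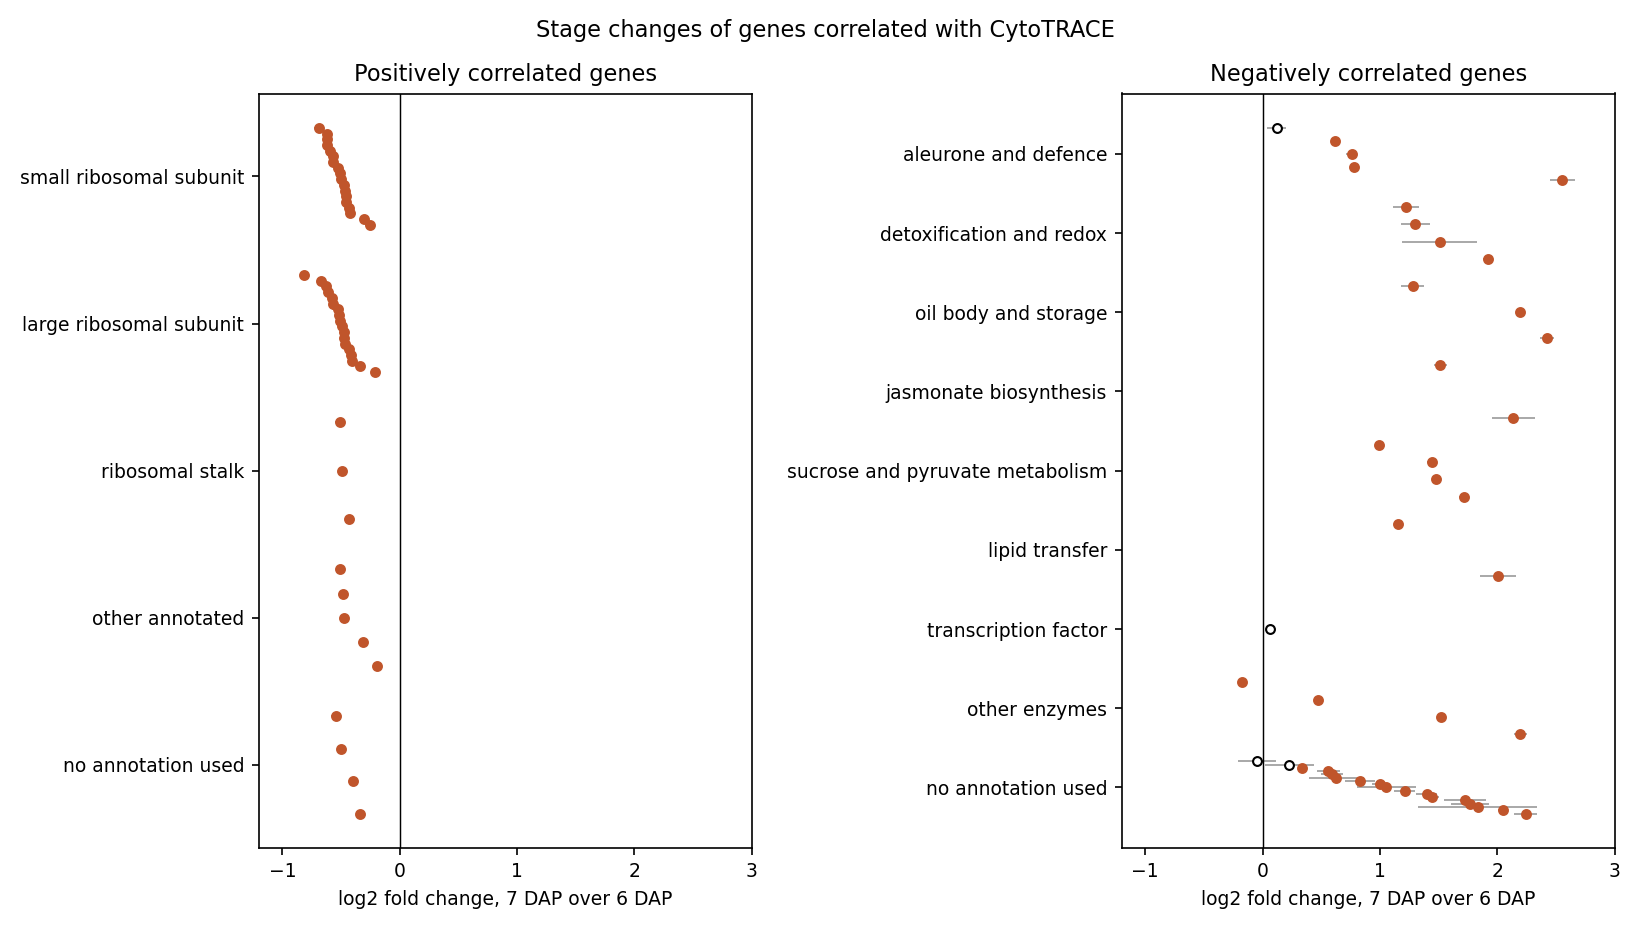
Log2 fold change of each tested gene, 7 DAP over 6 DAP, by functional group, for positively (left) and negatively (right) correlated genes; bars are standard errors, filled points have an edgeR adjusted p under 0.05 and open points do not. All 48 positively correlated genes lie between -0.82 and -0.19, and the 42 negatively correlated genes between -0.18 and 2.55.

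Of the 50 negatively correlated genes, 8 had too few counts for a test between the stages. All 4 genes of the mitochondrial genome were among them. ZeamMp161 had 12, 10 and 10 counts at 7 DAP against 11, 8 and 5 counts at 6 DAP, ZeamMp097 had 2, 5 and 5 against 2, 2 and 2 counts, and ZeamMp024 had 2, 8 and 1 against 1, 1 and 1 counts. ZeamMp182 had a single count in 1 of the 6 libraries. Of the 171 other mitochondrial genes, 101 had 0 counts in all 10 libraries and 9 were tested. Of these 9, 2 were higher at 7 DAP, beside 28.2% of all genes tested. GST7 (Zm00001d042104) had 1, 2 and 6 counts at 7 DAP against 1, 0 and 3 counts at 6 DAP, 1d051254 had 1, 1 and 3 against 1, 0 and 0 counts, and 1d048770 had 0, 3 and 0 counts against none. 1d000915 had 0 counts in all 10 libraries, so nothing can be said of its level beyond the limit that 3 counts per library would set.

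In the unreplicated pairs of the protoplast set, the 42 tested members mostly moved as in the replicated libraries. Between undigested libraries, 41 were higher at 7 DAP than at 6 DAP, beside 60.4% of all genes, and the exception was 1d023964. Between protoplast libraries, 39 were higher, beside 46.8% of all genes, and the exceptions were SUS2, 1d029087 and GST30. The median differences on the log2(CPM + 1) scale were 1.02 in undigested endosperm and 0.70 in protoplasts, beside 0.09 and -0.02 over all genes.

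Protoplasting was examined because the single-cell ranking rests on digested tissue. Here the 2 protoplast libraries were compared with the 2 undigested libraries with stage as a covariate, so the stages stand in for replicates, and a call needed an adjusted p under 0.05 and an absolute log2 fold change over 1. No positively correlated gene was called, with edgeR or with DESeq2. Of the 22799 genes tested, 18.4% were called higher and 7.37% lower. In simulated counts, the adjusted p alone recovered 0 of 50 changes of log2 0.5 and 18 of 48 of log2 1. The absence of calls therefore does not show unchanged levels. At an unadjusted p under 0.05 there were 16 of the 48 members. Of all 22799 genes tested, 8980 passed even the adjusted p, so the 16 are no excess over all genes. The log2 fold changes of the 48 ranged between -0.83 and 0.49 with a median of -0.14, beside -0.03 over all genes. Without the limit on the fold change, 8 members were lower and 1 higher, beside 16.3% and 23.0% of all genes.

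The share of members lower without that limit was thus near that of all genes tested, and 7 of the 8 were ribosomal, as were 39 of the whole list of 48. IDP65 had 142 CPM in protoplasts against 287 CPM in undigested endosperm at 6 DAP, and 103 against 161 CPM at 7 DAP. IDP65a had 205 against 352 CPM and 134 against 226 CPM, and RPS28 had 69.0 against 109.7 CPM and 36.8 against 70.6 CPM. The log2 fold changes were -0.83 ± 0.15, -0.77 ± 0.13 and -0.80 ± 0.14 (SE), with edgeR adjusted p-values of 0.0142, 0.0108 and 0.0126. Leaving out each library in turn, in fits without the stage covariate that the stage decrease of these genes therefore enters, gave log2 fold changes between -1.23 and -0.39 for IDP65, between -1.08 and -0.41 for IDP65a and between -1.27 and -0.38 for RPS28. All 3 passed the rule without the 7 DAP undigested library (edgeR adjusted p = 0.0043, 0.0174 and 0.0206) and none passed the adjusted p where another of the libraries was left out. These 3 genes were also the 3 with the strongest decrease between the stages, in libraries that the protoplast comparison does not use. The other 5 were ARPP2A, 1d041727, IDP486, magi92568 and the protein kinase homolog 1d006844, with log2 fold changes between -0.65 and -0.50. RPL35 was the single member higher, with 426 CPM in protoplasts against 326 CPM in undigested endosperm at 6 DAP and 351 against 233 CPM at 7 DAP, a log2 fold change of 0.49 ± 0.14 (SE, edgeR adjusted p = 0.0437). Its L35 partner 1d004052 had a log2 fold change of 0.05 ± 0.14 (SE).

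By stage, the median difference of the 48 positively correlated genes, protoplasts minus undigested endosperm on the log2(CPM + 1) scale, was -0.38 at 6 DAP and -0.29 at 7 DAP, beside -0.09 and -0.22 over all genes tested. Of the 48, 41 were below 0 at 6 DAP and 40 at 7 DAP. Over all 45953 genes, tested or not, 15405 were below 0 and 13927 above 0 at 6 DAP. At 7 DAP, 17171 were below 0 and 12869 above 0. The scaling matters for values of this size, since library totals lowered the log2 values of all genes by 0.17 (a shift of -0.17) relative to TMM, and TMM scaling gave -0.26 and -0.07. Of the 151 other ribosomal protein genes, 9 were called lower and 0 higher, beside 7.37% and 18.4% of all genes tested. Their median log2 fold change was -0.32. Without the limit on the fold change, 47 were lower and 0 higher, beside 16.3% and 23.0% of all genes.

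Negatively correlated genes responded to protoplasting much more unevenly. Of the 46 that passed the filter, 18 were called higher and 2 lower, beside 18.4% and 7.37% of all genes tested, and the median log2 fold change was 0.75. GST7, 1d051254 and 1d048770 passed the filter through the protoplast libraries alone and so had to be higher there, and ZeamMp161 passed through the undigested libraries alone. All 18 were higher at both stages, and both genes called lower were lower at both. With the stages as the only replicates, a call largely requires this, so it adds no support. With library totals 17 were called higher and 2 lower, while the share of higher genes among all calls was 60.3%, against 71.4% with TMM. Leaving out a single library leaves the stages unbalanced between treatments by construction, with a single library in one of the groups. The median log2 fold change was then -0.071 without the 7 DAP protoplast library and 1.095 without that of 6 DAP. Without the 6 DAP undigested library it was 0.21, and without that of 7 DAP it was 1.59.

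The steepest increases were in genes that undigested endosperm hardly expressed. GST7 had 2258 counts in protoplasts against 2 counts in undigested endosperm at 6 DAP, and 3699 against 0 counts at 7 DAP. The ratio of summed counts, scaled to library size, was 2677, with an exact 95% interval between 741 and 22109.5 that covers counting error only. 1d051254 had 1017 against 0 counts and 1252 against 4 counts, a ratio of 509.8 with an interval between 199 and 1873. 1d048770 had 13 against 1 counts and 14 against 0 counts, a ratio of 24.3 with an interval between 4 and 994, and its call was lost with DESeq2 (adjusted p = 0.113), without a filter beyond 1 count (edgeR adjusted p = 0.0692), without the 6 DAP protoplast library and without the 7 DAP undigested library, with log2 fold changes of 4.76, 4.35, 4.30 and 3.44. CYP11 had 206 CPM in protoplasts against 0.880 CPM in undigested endosperm at 6 DAP, and 253 against 2.36 CPM at 7 DAP, a log2 fold change of 7.21 ± 0.32 (SE, edgeR adjusted p = 0.000492). Glutathione transferases and cytochromes P450 are known for handling foreign and stress-derived compounds.

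Of the 3 sucrose synthases of the list, 2 were much higher in protoplasts. SUS2 had 539.5 CPM in protoplasts against 45.9 CPM in undigested endosperm at 6 DAP, and 477 against 129 CPM at 7 DAP. 1d029087 had 399 against 32.3 CPM and 332 against 102 CPM. Their log2 fold changes were 2.71 ± 0.43 and 2.66 ± 0.49 (SE, edgeR adjusted p = 0.00942 and 0.0146). In both genes the protoplast libraries were higher than both undigested libraries, and the undigested library of 7 DAP was above that of 6 DAP. The call of 1d029087 was lost without either protoplast library, with edgeR adjusted p-values of 0.0583 without that of 6 DAP and 0.0584 without that of 7 DAP, and reads common to near-identical sucrose synthases are not in the counts. SUS1 had 251 against 202 CPM and 562 against 576 CPM and was not called, with a log2 fold change of 0.14 ± 0.15 (SE). SH1, outside the list, had 18.8 against 71.0 CPM at 6 DAP and 4.24 against 581 CPM at 7 DAP, and was not called (log2 fold change -4.41 ± 1.47, SE; edgeR adjusted p = 0.0689).

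Further genes called higher covered several roles. MTL2 had 30.6 CPM in protoplasts against 4.06 CPM in undigested endosperm at 6 DAP, and 44.9 against 5.95 CPM at 7 DAP, a log2 fold change of 2.91 ± 0.17 (SE). OCL4 had 515 against 237 CPM and 705 against 253 CPM, and LTPG1 had 308 against 119.9 CPM and 603 against 259 CPM, with log2 fold changes of 1.30 ± 0.15 and 1.29 ± 0.13 (SE). OCL4 thus was called here and not between the stages. DEF2 had 13.2 against 1.63 CPM and 35.7 against 11.2 CPM, a log2 fold change of 2.25 ± 0.35 (SE). Without stage as a covariate, the calls of DEF2, LTPG1, umc1634 (Zm00001d045468) and PLT3 were lost, and that of umc1634 also with library totals (edgeR adjusted p = 0.0505). The calls of DEF2, LTPG1, umc1634 and bnlg1759a were also lost without either protoplast library or without the 6 DAP undigested library, and that of OCL4 without the 7 DAP protoplast library. In these fits DEF2 had log2 fold changes between 1.05 and 2.52, LTPG1 between 0.71 and 1.71, umc1634 between 0.45 and 1.63 and bnlg1759a between 1.19 and 1.86, and OCL4 had 1.08.

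Genes with no annotation made up 10 of the 18 called higher. 1d041363 had 57.4 CPM in protoplasts against 5.61 CPM in undigested endosperm at 6 DAP, and 77.6 against 5.71 CPM at 7 DAP, while its stages in the replicated libraries overlapped. 1d017852 had 138 against 13.4 CPM and 189 against 19.6 CPM, with log2 fold changes of 3.56 ± 0.19 for 1d041363 and 3.32 ± 0.14 for 1d017852 (SE). The others were 1d051254 and 1d048770, given above, umc1217 (Zm00001d049061), 1d000919, 1d036136, 1d016379, bnlg1759a and umc1634, with log2 fold changes between 1.35 and 3.15 apart from the first 2. Of the 18 genes, 12 were also called higher at 7 DAP in the replicated libraries, 3 were tested there without a call and 3 were not tested. Of all 42 negatively correlated genes tested there, 37 were called higher, so the 12 are no excess over the list.

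The 2 genes called lower in protoplasts have no annotation used here. PLT3 had 4.21 CPM in protoplasts against 28 CPM in undigested endosperm at 6 DAP, and 18 against 54.2 CPM at 7 DAP, a log2 fold change of -2.12 ± 0.31 (SE, edgeR adjusted p = 0.00727). 1d011661 had 3.10 against 6.37 CPM and 3.99 against 9.51 CPM, a log2 fold change of -1.15 ± 0.26 (SE). Both calls were lost without the 6 DAP protoplast or the 7 DAP undigested library, where PLT3 had -1.15 and -1.33 and 1d011661 had -0.96 and -0.85, and that of 1d011661 also without the 7 DAP protoplast library, with -1.35. Both genes were called higher at 7 DAP than at 6 DAP in the replicated libraries.

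The abundant members AL9, PDK2 and SBT1 were not called, and all 3 were lower in protoplasts at both stages. AL9 had 1884 CPM in protoplasts against 2050 CPM in undigested endosperm at 6 DAP, and 3060 against 3811 CPM at 7 DAP, a log2 fold change of -0.22 ± 0.14 (SE, edgeR adjusted p = 0.264). PDK2 had 1726 against 1890 CPM and 3110 against 3809 CPM, a log2 fold change of -0.21 ± 0.14 (SE). SBT1 had 2320 against 2974 CPM and 2794 against 4724 CPM, a log2 fold change of -0.56 ± 0.16 (SE, edgeR adjusted p = 0.0484), under the fold change limit, and its libraries differed more at 7 DAP than at 6 DAP. Marker levels outside the list differed as well between preparations. The 2 aleurone markers summed to 389 CPM in protoplasts against 360.4 CPM in undigested endosperm at 6 DAP and 386 against 509 CPM at 7 DAP, with DHN1, a dehydrin, at 74.1 against 0.796 CPM and 102 against 3.43 CPM. VPP7 was lower at both stages, with 315 against 359.6 CPM and 283 against 506 CPM, so the higher sum at 6 DAP came from DHN1. The 5 starchy endosperm markers summed to 1959 against 5065 CPM and 1722 against 7022 CPM, the 3 embryo surrounding region markers to 76.9 against 287 CPM and 588 against 1514 CPM, and the 2 markers of the endosperm adjacent to the scutellum to 9.26 against 29.95 CPM and 10.2 against 77.5 CPM. The 6 transfer layer markers summed to 1185 against 3013 CPM and 1456 against 1052 CPM and the 4 embryo genes to 83.6 against 53.9 CPM and 225 against 441 CPM, and the part of these shifts in the values of the members was not tested.

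**Figure D4:**
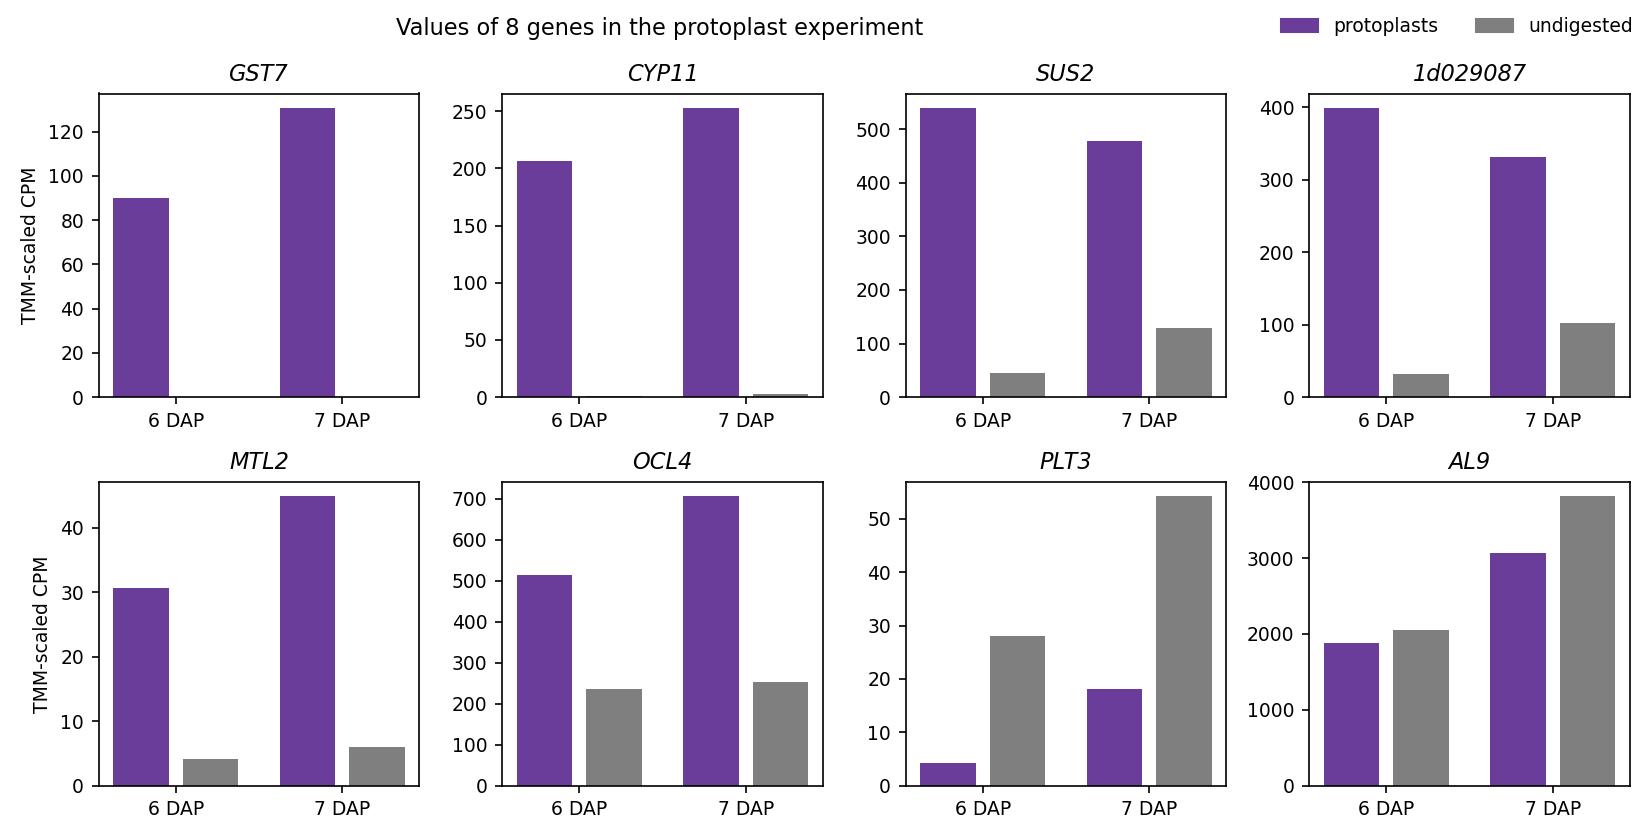
TMM-scaled CPM of 8 negatively correlated genes in the protoplast set, 1 bar per library, with protoplasts (purple) left of undigested endosperm (grey) at 6 and at 7 DAP. GST7 and CYP11 are near 0 in undigested endosperm, SUS2 and 1d029087 are higher in protoplasts at both stages, and PLT3 is lower in protoplasts at both stages.

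The oil body and storage genes were not called. OBAP2A had 29.2 CPM in protoplasts against 13.5 CPM in undigested endosperm at 6 DAP, and 53.6 against 76.6 CPM at 7 DAP, so the libraries were ordered in opposite ways at the 2 stages. phi448880 had 140.2 against 57.8 CPM and 267 against 267 CPM. The log2 fold changes were 0.27 ± 0.40 and 0.63 ± 0.32 (SE). PER1 (1d022278) had 23.6 against 30.5 CPM and 49.2 against 103 CPM, a log2 fold change of -0.72 ± 0.21 (SE, edgeR adjusted p = 0.0471), under the fold change limit. By stage, the median difference of the 46 tested members on the log2(CPM + 1) scale was 0.69 at 6 DAP and 0.28 at 7 DAP, beside -0.09 and -0.22 over all genes. Of the 46, 31 were above 0 at 6 DAP and 27 at 7 DAP. Over all 45953 genes, tested or not, 13927 were above 0 and 15405 below 0 at 6 DAP. At 7 DAP, 12869 were above 0 and 17171 below 0.

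**Figure D5:**
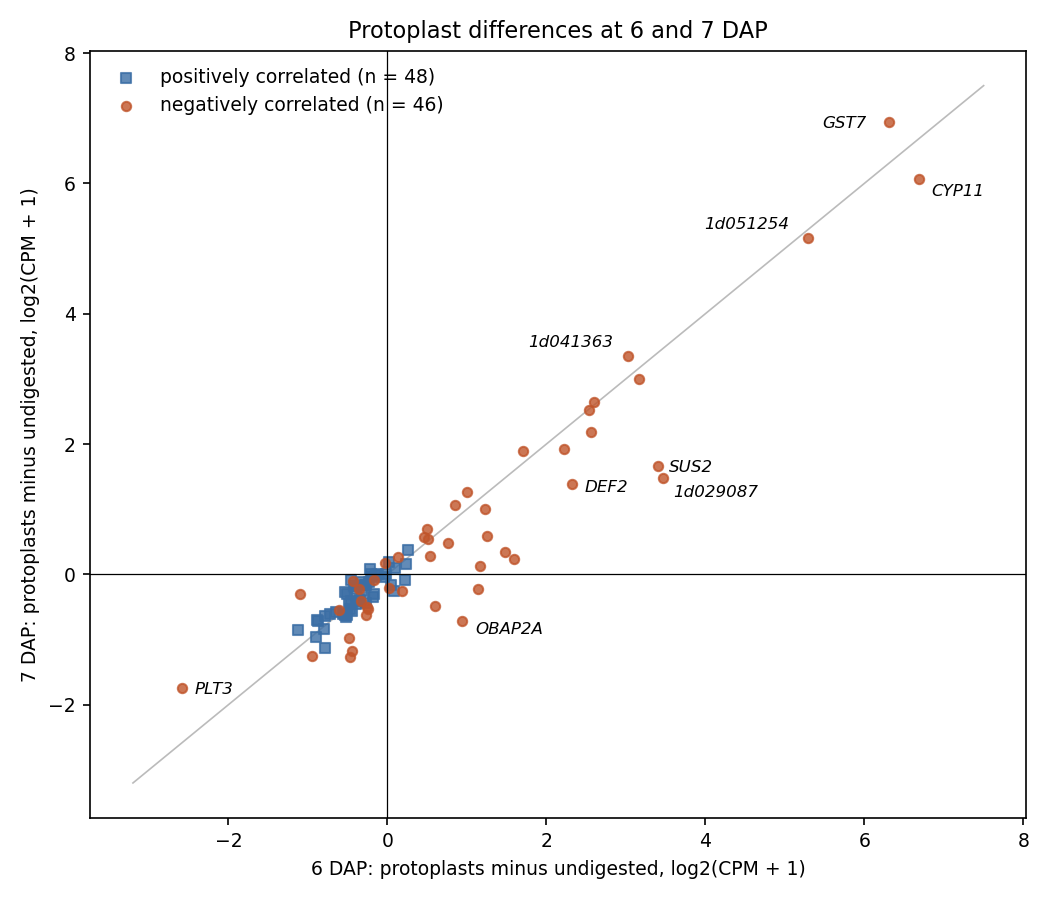
Difference between protoplasts and undigested endosperm on the log2(CPM + 1) scale at 7 DAP (vertical axis) against 6 DAP (horizontal axis) for each tested gene, with CPM by library total; squares are positively correlated genes, circles negatively correlated genes, and the grey line marks equal differences. The positively correlated genes cluster near 0, with medians of -0.38 at 6 DAP and -0.29 at 7 DAP, while negatively correlated genes spread from PLT3 at the lower left to GST7 and CYP11 at the upper right.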

How the data were processed

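Bulk RNA-seq was measured in 10 libraries, 6 of a replicated stage set and 4 of a protoplast set. The authors trimmed reads with Trimmomatic 0.39, aligned them to the B73 v4 genome with STAR 2.7.5c and counted uniquely mapped reads per gene with featureCounts 2.0.1. They deposited raw counts without normalization, and the strand setting is not given in the sources used here. Unique mapping lowers genes with near-identical copies. Groups were taken from the sample labels, and 0 columns were left unused.

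Differential expression was computed with edgeR 4.0.16 (R 4.3.3), using TMM factors, filterByExpr and its quasi-likelihood F test, with p-values adjusted by Benjamini-Hochberg across every tested gene. Standard errors were computed as the log2 fold change divided by the square root of F. The common biological coefficient of variation was 4.14% between stages and 19.0% in the protoplast set. The 2 sets were scaled separately, so levels are not compared between them. Replicate pairs differed by more than sampling noise, with a chi-square per gene between 1.67 and 3.65. Single libraries were compared as log2(CPM + 1), with no test, which understates changes of low genes. Alternatives were DESeq2 1.42.0, other scalings, filters, limits and pseudocounts, a replicate block, no stage covariate, and leaving out each library. Tests were checked on simulated counts with 1 dispersion for all genes, at an adjusted p under 0.05 and no fold change limit. At a log2 change of 0.5, the stage test recovered 36 of 47 changed genes and the protoplast test 0 of 50. At a log2 change of 1, they recovered 46 of 48 and 18 of 48. At 2, they recovered 50 of 50 and 48 of 48.

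Members and lists were chosen with earlier results of these data known. Named genes are the 5 largest called changes in each direction of each comparison and list, members with a characterised name or family, pairs with the same annotated ribosomal protein, and untested members. Names and annotations came from the study's supplementary tables. The RefSeq table, of another assembly, matched 0 of the identifiers, so no coordinates, gene lengths or GC contents were used and levels are not compared between genes.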

Additional observations from a re-analysis of the deposited data

Results flagged for a closer look

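With counts scaled by library totals, several members moved in opposite directions under the same contrast in the unreplicated protoplast set. Each side rests on 1 library per group, and none of these differences was tested. All values are differences on the log2(CPM + 1) scale. With TMM scaling, tried after seeing the data, 6 of the 13 between preparations (HSP70-4, 1d053863, 1d012886, 1d052025, OBAP2B and 1d024120) were above 0 at both stages, and 1 of the 5 between stages (TIDP3261) was below 0 in both preparations. The others kept opposite signs, among them OBAP2A with -0.51 and 1.06 and phi448880 with -0.0032 and 1.26.

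For protoplasts minus undigested endosperm, the largest opposite values were those of OBAP2A, with -0.72 at 7 DAP and 0.94 at 6 DAP. They were -0.49 and 0.61 for 2G072322, -0.22 and 1.14 for phi448880, and -0.25 and 0.19 for SUS1. OBAP2B had 0.18 at 7 DAP and -0.03 at 6 DAP, and 1d024120 had -0.20 and 0.02. Among positively correlated genes, TIDP3261 had -0.26 at 7 DAP and 0.09 at 6 DAP, 1d053863 had -0.16 and 0.05, and 1d012886 had -0.085 and 0.22. AY109733 had 0.076 and -0.21, AY109477 had 0.012 and -0.21, HSP70-4 had 0.0063 and -0.02, and 1d052025 had 0.0019 and -0.11.

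For 7 minus 6 DAP, 1d029087 had -0.28 in protoplasts and 1.71 in undigested endosperm, SUS2 had -0.19 and 1.55, and GST30 had -0.066 and 1.07. 1d023964 had 0.022 and -0.06, and TIDP3261 had -0.33 and 0.02.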

How the results depend on the processing

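Between stages, all 48 positively correlated genes were called lower under every alternative, and the negatively correlated genes called higher numbered 35 to 39. With library totals the median stage changes were -0.38 for the positive and 1.40 for the negative list. A log2 limit of 1 gave 26 negative members past it, and the share of all genes past that limit was not computed. OCL4 and MLO5 gained a call with library totals, and OCL4 also with a minimum of 10 counts per library and without the third 6 DAP library. Deviations of same-numbered replicates from their stage means had r of 0.07, 0.01 and -0.002, and those of different-numbered replicates had r between -0.08 and 0.06. Gene-wise deviations hold counting noise, so these values cannot show whether same-numbered libraries share a source. With the replicate block the medians were -0.49 and 1.31, with 48 lower and 37 higher.

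After protoplasting, without the limit on the fold change, 1 positive member was higher and 8 lower. Of the 46 tested negative members, 22 were higher and 5 lower, beside 23.0% and 16.3% of all genes tested. With a log2 limit of 2, 14 negative members were higher and 1 lower, and without the stage covariate 15 were higher and 1 lower. The shares of all genes under these settings were not computed. With library totals the positive median was -0.31. By stage, TMM scaling gave positive medians of -0.26 at 6 DAP and -0.073 at 7 DAP, and members with a mean CPM of at least 1 gave a negative median of 0.81 at 6 DAP. SUS1 was at -0.031 with library totals and OBAP2A at -0.12 without the stage covariate, both of the opposite sign and not called.

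Leaving out each replicate in turn gave stage medians between -0.50 and -0.47 for the positive and between 1.23 and 1.34 for the negative list, with 8 to 9 negative members past the limit. Leaving out each protoplast or undigested library in turn gave positive medians between -0.41 and 0.11 with 0 to 3 called lower, and negative medians between -0.071 and 1.59 with 11 to 26 called higher and 0 to 4 lower. These fits have no stage covariate and leave the stages unbalanced by construction, so stage differences enter them. In them the log2 fold changes of some genes changed sign: SUS1 ranged between -0.62 and 1.00, AL9 between -0.63 and 0.26, PDK2 between -0.71 and 0.35, OBAP2A between -0.89 and 1.61, phi448880 between -0.39 and 1.81, 1d022278 between -1.50 and 0.25, AOC1 between -0.25 and 1.47, and php20719a between -1.63 and 0.47. Of these, OBAP2A, phi448880 and AOC1 were called higher without the 7 DAP undigested library, and 1d022278 and php20719a lower without that of 6 DAP.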
